A study of Thermochaetoides thermophila with 9 samples.

Results

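The comparison described here set xylose against glucose as the sugar offered to Chaetomium thermophilum, a filamentous ascomycete that lives on decaying plant material at high temperature. Its members were the 3 libraries labelled xylose and the 3 labelled glucose, taken by their labels, out of 9 libraries in the series, and the 6904 of 7785 listed genes that passed a filter on low counts. The other 3 libraries, the reference, came from mycelia kept without sugar. All 9 cultures were wild type. They were grown in complete medium (the labels) or with glucose (the methods), depleted in SPY, a minimal medium without sugar, for 42 h (the methods) or 48 h (the labels), and then exposed for a further 6 h to 1% D-glucose, to 1% D-xylose or to no sugar. The growth temperature was given as 50 °C in the labels and the methods and as 55 °C in a scheme of the study. Poly(A)-selected RNA of whole mycelium was sequenced, so a transcript level is a mean over all hyphae of a culture. The labels call the replicates biological.

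Xylan, the main hemicellulose of many plant walls, is a chain of xylose units that xylanases cut into short pieces and that xylosidases and debranching esterases reduce to single sugars. Inside a fungal cell D-xylose is reduced to xylitol, oxidized to xylulose and phosphorylated to xylulose 5-phosphate, which enters the pentose phosphate pathway and through it glycolysis. In Aspergillus and Trichoderma the activator XlnR (Xyr1 in Trichoderma) turns on genes of this route, and the repressor CreA, the relative of yeast Mig1, holds them down in glucose.

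Between 38806913 and 52229013 reads were counted on genes per library, and the 6 libraries with sugar hold both ends of this range. Levels are given as CPM, counts per 1000000 reads of the library after TMM scaling, which evens out libraries that differ in a few abundant transcripts. CPM is not divided by gene length, so it compares libraries for 1 gene, and a difference in CPM between genes is one of reads and not of transcripts. A count of 0 would allow up to 3 reads, or 0.0530 to 0.109 CPM in these 6 libraries. The 26S rRNA gene, which poly(A) selection should deplete, took 7.36% to 22.9% of the reads in glucose and 11.6% to 13.3% in xylose. Libraries of the same sugar had Spearman correlations over genes of 0.934 to 0.992, and libraries of different sugars 0.739 to 0.840. The root mean square distance in log2 CPM was 0.36 to 0.70 within glucose, 0.52 to 0.89 within xylose and 1.35 to 1.79 between the sugars. Xylose library 2 stood 0.88 and 0.89 from the other xylose libraries, which were 0.52 apart.

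A large share of the genes differed between the sugars. With edgeR's quasi-likelihood test and Benjamini-Hochberg adjustment over all genes tested, 3504 of 6904 genes (50.8%) had an adjusted p under 0.05 and are called differentially expressed genes (DEGs) here. With other scalings of the libraries the share was 44.6% to 49.6%, and with 1 library left out it was 38.6% to 55.5%, lowest without glucose library 2 and highest without reference library 2. Of these, 1944 (28.2% of the genes tested) had the higher level in xylose and 1560 (22.6%) in glucose. The log2 fold changes below are xylose minus glucose, with the standard error (SE) of the fit and 3 libraries a sugar, so a positive value stands for more transcript in xylose. Changes were often large: 1582 DEGs were at least 1 log2 unit (2-fold) higher in xylose and 1300 at least 1 unit higher in glucose, which are 22.9% and 18.8% of the genes tested. At 4 log2 units and beyond the order was the other way, with 21 genes higher in xylose and 91 in glucose. The libraries of the sugars did not overlap for 4454 genes (64.5%), with those of xylose above for 35.6% of the genes tested and those of glucose above for 28.9%, and 3423 of the DEGs were among them.

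In reads, the genes higher in glucose had a median mean level of 67.1 CPM in glucose and 21.7 CPM in xylose. The genes higher in xylose had medians of 14.7 CPM in glucose and 44.8 CPM in xylose. Of the CPM of all tested genes other than the 26S rRNA, the genes higher in glucose held 43.0% to 50.8% in glucose libraries and 9.31% to 11.4% in xylose libraries. The genes higher in xylose held 8.58% to 12.0% in glucose and 36.2% to 38.0% in xylose. These genes were chosen by their direction in the same libraries, so the order of these medians and shares followed from the choice, and only their size is described. Genes were also classed by their mean level in the sugar where it was higher. The share of DEGs rose with that level, from 22.7% of the 374 genes under 1 CPM to 60.9% of the 1635 genes between 100 and 1000 CPM. It was 54.7% of the 236 genes above 1000 CPM. The median log2 fold change over all genes tested was 0.16. Other scalings of the libraries put that median between 0.01 and 0.34, so a change has to be read relative to it, and a difference smaller than this shift has no fixed direction.

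**Figure D1:**
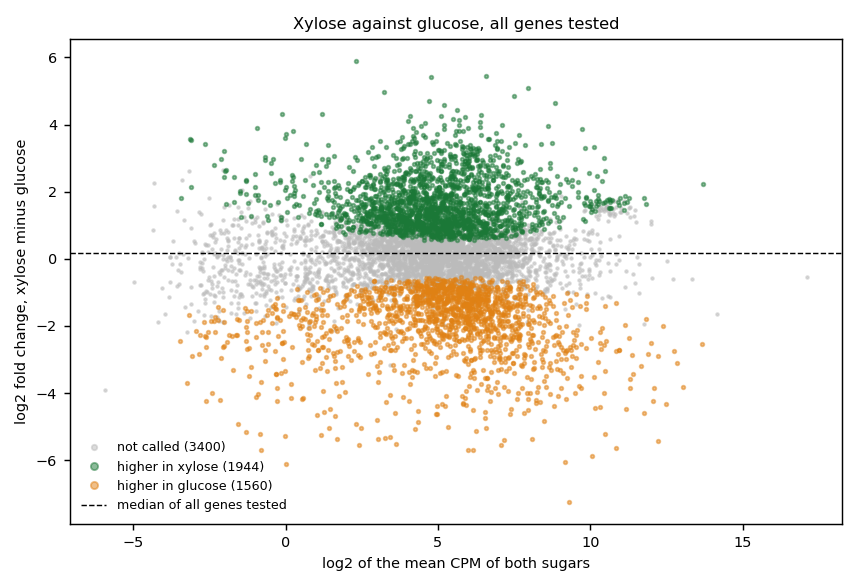
Log2 fold change (xylose minus glucose) of each of the 6904 genes tested against the log2 of its mean CPM over both sugars. Green points are the 1944 DEGs higher in xylose, orange points the 1560 higher in glucose, grey points the genes without a call, and the dashed line is the median of all genes, 0.16. The changes beyond 4 log2 units lie mostly below the line.

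Names were at hand for 2066 of the genes tested, from the supplements of the study, and the names cover mainly genes that the study tabulated for their level in glucose or their change from the reference. Named genes had a median log2 fold change of 0.18 and genes without a name 0.16. Gene lists were drawn up from these names. Each list is given by its counts and its median beside the shares of all genes tested (28.2% higher in xylose, 22.6% higher in glucose, median 0.16), and no list was tested as a set.

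Enzymes of hemicellulose breakdown were higher in xylose in 8 of 13 members (61.5%) and higher in glucose in 1, with a median of 2.27. The largest change was that of a xylosidase/arabinosidase-like gene, CTHT_0011440, which would release single sugars from xylan pieces. It had 4.77, 3.67 and 4.29 CPM in the glucose libraries and 159.9, 193 and 204 CPM in the xylose libraries, at levels of 6.15, 11.0 and 4.2 CPM without sugar. The log2 fold change was 5.45 ± 0.39 (SE, edgeR adjusted p = 2.31e-05), so all xylose libraries stood far above all others.

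The beta-xylosidase gene CTHT_0064690, for the enzyme that splits xylobiose, had 4.70, 4.38 and 4.04 CPM in glucose and 76.7, 132 and 76.5 CPM in xylose. Its log2 fold change was 4.44 ± 0.34 (SE, edgeR adjusted p = 3.15e-05). The beta-xylanase gene CTHT_0050050, for an enzyme that cuts within the xylan chain, had 9.34, 9.48 and 4.95 CPM in glucose and 112, 153 and 93.6 CPM in xylose, a change of 3.91 ± 0.33 (SE, edgeR adjusted p = 3.83e-05). For both genes the lowest xylose library was above every glucose and every reference library.

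Other xylanase genes did not all follow. The endo-1,4-beta-xylanase gene CTHT_0042130 had 12.1, 12.6 and 11.6 CPM in glucose and 99.5, 234 and 136 CPM in xylose (3.69 ± 0.42, SE). A further beta-xylanase gene, CTHT_0039870, had 14.9, 17 and 18.4 CPM in glucose and 280.0, 35.5 and 356 CPM in xylose, where library 2 was far under the other libraries, though still above glucose. Its log2 fold change was 3.74 ± 0.72 (SE, edgeR adjusted p = 0.00137) and ran from 3.24 to 4.25 when 1 library was left out. The endo-1,4-beta-xylanase gene CTHT_0049750 went the other way, with 41.9, 46.8 and 37.3 CPM in glucose and 8.11, 20.1 and 10.5 CPM in xylose. That was a change of -1.71 ± 0.33 (SE, edgeR adjusted p = 0.00147), and its reference libraries, at 62.2, 55.3 and 81.4 CPM, were higher still. A xylanase gene with few reads, CTHT_0047500, had 21, 6 and 8 reads in glucose and 69, 9 and 128 in xylose, and of the 6 fits that each left out 1 library of a sugar, only the one without xylose library 2 kept its call.

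Debranching enzymes were mixed as well. The putative cellulose-binding protein CTHT_0050130, annotated as an acetylxylan esterase, which removes acetyl groups from xylan, had 9.17, 9.19 and 7.13 CPM in glucose and 59.1, 113 and 52.3 CPM in xylose (3.14 ± 0.35, SE, edgeR adjusted p = 7.67e-05). The rhamnogalacturonate lyase gene CTHT_0046480, for a pectin-cutting enzyme that the name pattern put into the list, had 2.56, 1.79 and 1.96 CPM in glucose and 6.31, 4.73 and 5.40 CPM in xylose, a change of 1.38 ± 0.31 (SE). The other members, a further pair of acetylxylan esterases, a mannanase and a beta-galactosidase, had no call. Over the fits that left out 1 library the list held 7 or 8 calls higher in xylose.

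The genes that carry xylose into metabolism were higher in xylose at each step of the reduction, oxidation and phosphorylation. In the list of pentose catabolism and the pentose phosphate pathway, 8 of 12 genes (66.7%) were higher in xylose and 2 in glucose, with a median of 1.76. D-xylose reductase, CTHT_0056950, which makes xylitol, had 137, 181 and 177 CPM in glucose and 1766, 1161 and 1988 CPM in xylose (3.31 ± 0.43, SE, edgeR adjusted p = 1.48e-04). Without sugar the same gene had 7.41, 14.6 and 6.83 CPM, so both sugars stood above the reference and xylose above glucose.

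Xylitol dehydrogenase, CTHT_0073860, which oxidizes xylitol to xylulose, had 15.0, 13.2 and 13.9 CPM in glucose and 633, 319 and 493 CPM in xylose. The log2 fold change of 5.10 ± 0.35 (SE, edgeR adjusted p = 2.31e-05) was among the 10 largest and had one of the 10 smallest p-values in its direction. Here the reference, at 181, 199.7 and 167 CPM, lay between the sugars: the fit gave -3.70 for glucose minus reference and 1.40 for xylose minus reference, values that share libraries with the comparison of the sugars. A gene named Xylitol Dehydrogenease A, CTHT_0020140, had 83.0, 70.7 and 77.3 CPM in glucose and 126, 263 and 130.3 CPM in xylose, and its change of 1.17 ± 0.46 (SE) had an edgeR adjusted p of 0.0535, without a call. Xylulose kinase, CTHT_0022560, had 39.5, 34.0 and 47.7 CPM in glucose and 280.0, 543 and 444 CPM in xylose (3.38 ± 0.34, SE, edgeR adjusted p = 5.97e-05).

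In the pentose phosphate pathway the non-oxidative enzyme transketolase, CTHT_0066780, which moves carbon pairs between sugar phosphates, had 420.2, 368 and 419 CPM in glucose and 2032, 2248 and 3167 CPM in xylose (2.63 ± 0.46, SE, edgeR adjusted p = 7.82e-04). Transaldolase, CTHT_0013420, its partner in the same branch, had 1634, 1788 and 2514 CPM in glucose and 1180.0, 2689 and 1891 CPM in xylose, with overlapping libraries and a change of -0.04 ± 0.49 (SE). The 3 genes of the oxidative branch, in which the dehydrogenases yield NADPH and the lactonase does not, were all higher in xylose. They were glucose-6-phosphate dehydrogenase (CTHT_0057650) by 1.30, 6-phosphogluconolactonase (CTHT_0025400) by 2.11 and 6-phosphogluconate dehydrogenase (CTHT_0060270) by 1.64 log2 units. The call of the first was lost without glucose library 1. The last had 576, 565 and 641 CPM in glucose and 1285, 2303 and 1966 CPM in xylose. Ribulose-phosphate 3-epimerase, CTHT_0003090, which joins xylulose 5-phosphate to the pathway, had 38.0, 30.9 and 62.9 CPM in glucose and 123, 173 and 187 CPM in xylose, a change of 1.87 ± 0.66 (SE, edgeR adjusted p = 0.0349) whose call was kept only without glucose library 3 among the 6 fits with a library left out.

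A member higher in glucose was a phosphoketolase-like gene, CTHT_0017250, whose product splits xylulose 5-phosphate or fructose 6-phosphate. It had 8214, 18679 and 19766 CPM in glucose and 214, 2407 and 680.0 CPM in xylose, and 3566, 2119.6 and 3926 CPM without sugar. The log2 fold change was -3.82 ± 0.89 (SE, edgeR adjusted p = 0.00424), with xylose library 2 the nearest to glucose but still lower than every glucose library. A D-arabinitol dehydrogenase-like gene, CTHT_0013330, had 12.3, 17.7 and 25.1 CPM in glucose and 4.01, 7.68 and 6.50 CPM in xylose (-1.60 ± 0.37, SE, edgeR adjusted p = 0.00412).

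**Figure D2:**
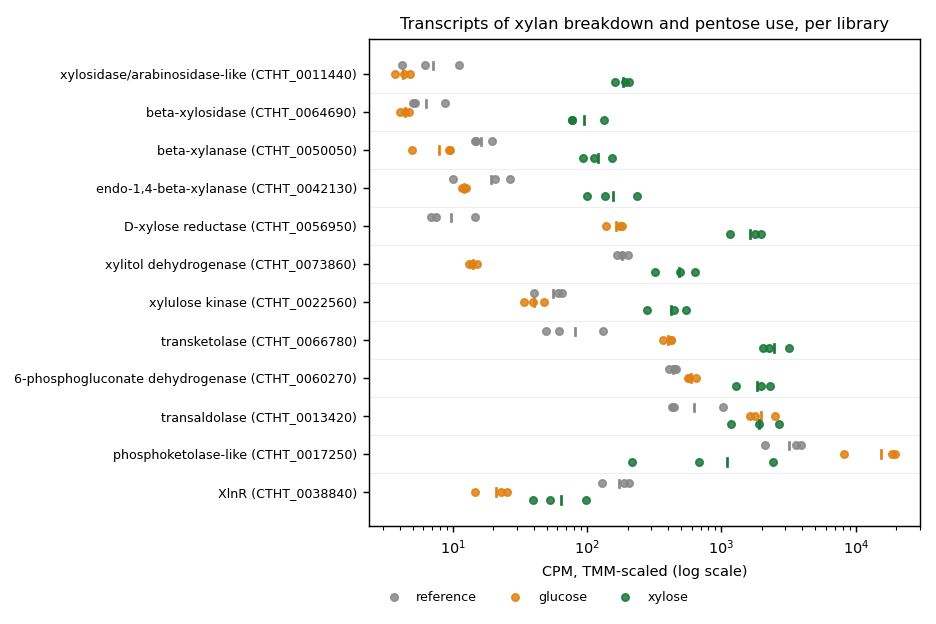
CPM (log axis, TMM-scaled) of 12 genes of xylan breakdown and pentose use in each library, with points for single libraries, vertical bars for the mean of 3, grey for the reference, orange for glucose and green for xylose. Green points lie right of orange points for 10 genes, the points of transaldolase overlap, and those of the phosphoketolase-like gene lie in the opposite order.

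Cellulose-degrading enzymes did not share a direction: 4 of 17 (23.5%) were higher in xylose, 3 (17.6%) in glucose, and the median was 0.40, or -0.16 without xylose library 2. The putative cellulose-binding protein CTHT_0003950 had 0.393, 0.548 and 0.837 CPM in glucose, 11.6, 34.5 and 8.53 CPM in xylose and 5.07, 4.0 and 3.70 CPM in the reference. Its change of 4.97 ± 0.58 (SE, edgeR adjusted p = 9.09e-05) was among the 10 largest, with xylose library 2 the highest of its group. Beta-glucosidases, which split cellobiose, went both ways. The gene CTHT_0010430 had 124, 181 and 246 CPM in glucose and 24.3, 43.0 and 28.1 CPM in xylose (-2.53 ± 0.33, SE), while CTHT_0065450 had 6.25, 4.82 and 2.62 CPM in glucose and 22.1, 5.69 and 10.7 CPM in xylose (1.48 ± 0.48, SE), where the libraries overlapped and the call was lost without glucose library 2, glucose library 3 or xylose library 1. Without xylose library 3 the list held 1 call higher in glucose.

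Glycolysis, the route that glucose takes directly and that xylose joins midway, showed few differences: xylose had the higher level for 2 of 10 genes, and glucose for 0 by edgeR, at an unadjusted p under 0.05 or by DESeq2. The median was 0.22. Glyceraldehyde-3-phosphate dehydrogenase, CTHT_0004880, had 6545, 7336 and 10157 CPM in glucose and 2519, 8472 and 4883 CPM in xylose, a change of -0.60 ± 0.72 (SE, edgeR adjusted p = 0.506) with overlapping libraries. The 7 other genes without a call had changes between -0.56 and 1.19. The genes with a call were a phosphoglycerate mutase-like gene, CTHT_0015180, at 4.10, 2.82 and 0.873 CPM in glucose and 45.8, 32.3 and 30.1 CPM in xylose (3.77 ± 0.52, SE), and CTHT_0057190, annotated as hexokinase, the enzyme that phosphorylates glucose, at 15.0, 12.9 and 14.7 CPM in glucose and 55.2, 34.8 and 67.1 CPM in xylose (1.88 ± 0.29, SE).

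In the list of gluconeogenesis, the reverse route, with the glyoxylate cycle and acetate use, 3 of 10 genes were higher in glucose, against 22.6% of all genes, and the median was -0.08, or 0.11 with total counts alone. Phosphoenolpyruvate carboxykinase, which starts gluconeogenesis from oxaloacetate, was named for the gene CTHT_0044390, which had 2503, 3111 and 2629.7 CPM in glucose, 61.7, 73.8 and 86.5 CPM in xylose and 1955, 4591 and 1441 CPM without sugar. The change of -5.21 ± 0.58 (SE, edgeR adjusted p = 7.42e-05) put every xylose library far under every other library. Fructose-1,6-bisphosphatase, CTHT_0042460, the last dedicated step of the route, had 419.9, 569 and 381 CPM in glucose and 15.7, 41.6 and 29.1 CPM in xylose (-3.99 ± 0.44, SE, edgeR adjusted p = 7.32e-05). A gene annotated as the ATP-dependent carboxykinase, CTHT_0017070, had 105, 156 and 54.9 CPM in glucose and 33, 34.9 and 25.5 CPM in xylose (-1.76 ± 0.42, SE). The other 7 members, which are malic enzyme and enzymes of the glyoxylate cycle, of acetate use and of acetyl group transfer, had no call and changes between -0.46 and 0.58, and 0 were higher in xylose by edgeR, at an unadjusted p under 0.05 or by DESeq2.

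Pyruvate dehydrogenase and the citric acid cycle had 10 of 22 genes (45.5%) higher in xylose, 1 in glucose and a median of 0.85. Without reference library 2 the count in glucose was 3. The E1 beta subunit of pyruvate dehydrogenase, CTHT_0006350, which feeds pyruvate carbon into the cycle, had 95.6, 78.4 and 87.4 CPM in glucose and 408, 476 and 512 CPM in xylose (2.42 ± 0.28, SE, edgeR adjusted p = 8.32e-05). Pyruvate dehydrogenase kinase, CTHT_0013820, which inactivates that complex, was the gene higher in glucose, at 106, 105 and 89.4 CPM against 46.6, 18.2 and 49.0 CPM in xylose (-1.40 ± 0.38, SE, edgeR adjusted p = 0.00946). All 3 isocitrate dehydrogenase genes, singled out after their values were seen, were higher in xylose, with changes between 2.10 and 2.38. The 4 succinate dehydrogenase genes had changes between 0.22 and 0.67, with 0 calls by edgeR, at an unadjusted p under 0.05 or by DESeq2.

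The respiratory chain was mostly without calls: 2 of 43 genes were higher in xylose, 4 in glucose, and the median was 0.28. Both of its largest changes were in the direction of glucose. Alternative oxidase, CTHT_0031430, which hands electrons from ubiquinol directly to oxygen, had 2099.5, 2966 and 2175 CPM in glucose, 56.2, 219 and 64.4 CPM in xylose and 43.6, 166 and 25.4 CPM without sugar. The change was -4.41 ± 0.81 (SE, edgeR adjusted p = 0.00101), and the xylose libraries overlapped with the reference. A 64 kDa mitochondrial NADH dehydrogenase-like gene, CTHT_0039370, had 3.11, 3.65 and 5.46 CPM in glucose and 0.477, 0.434 and 0.491 CPM in xylose (-3.11 ± 0.38, SE, edgeR adjusted p = 1.13e-04).

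Of the 9 ATP synthase genes, grouped after their values were seen, 8 had all xylose libraries above all glucose libraries, against 35.6% of all genes tested. Yet 0 of the 9 were called by edgeR over all libraries, at an unadjusted p under 0.05 or by DESeq2. In the fit without reference library 2 the count was 5, and with only the libraries of the 2 sugars 6. The 2 calls higher in xylose in the whole list became 0 when any 1 glucose or xylose library was left out, 1 without reference library 1, and 8 without reference library 2, where the calls in glucose were 7.

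Mitochondrial carriers, which move metabolites across the inner membrane, were higher in xylose in 7 of 15 genes and in glucose in 2, with a median of 0.73. Without glucose library 1 or without glucose library 2 the first count was 4, and the second was 1 without glucose library 2, glucose library 3 or xylose library 1. A calcium-binding carrier gene, CTHT_0052990, had 5.91, 4.30 and 4.04 CPM in glucose and 107, 78.1 and 71.7 CPM in xylose (4.17 ± 0.33, SE, edgeR adjusted p = 3.15e-05), and a dicarboxylate transporter gene, CTHT_0016040, had 4.45, 2.76 and 3.46 CPM in glucose and 40.5, 53.4 and 39.5 CPM in xylose (3.64 ± 0.30, SE). The putative 2-oxoglutarate/malate carrier CTHT_0042630 had one of the smallest p-values of all: 30.2, 31.2 and 30.0 CPM in glucose and 2.86, 3.21 and 2.73 CPM in xylose, a change of -3.38 ± 0.22 (SE, edgeR adjusted p = 2.31e-05), with very little spread in either sugar.

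Transporters of sugars and carboxylic acids were higher in glucose in 6 of 12 genes (50.0%) and in xylose in 1, with a median of -0.88. The putative solute:hydrogen antiporter CTHT_0021110, described in the study's list as taking up carboxylic acids, had 1979.6, 3691 and 5053 CPM in glucose, 51.1, 96.6 and 69.8 CPM in xylose and 747, 333 and 644 CPM in the reference (-5.62 ± 0.59, SE, edgeR adjusted p = 6.48e-05). The MFS general substrate transporter CTHT_0055740 was under 1 CPM outside glucose, with 16.0, 28.8 and 28.1 CPM in glucose, 0.442, 0.651 and 0.491 CPM in xylose and 0.116, 0.301 and 0.358 CPM in the reference (-5.52 ± 0.44, SE, edgeR adjusted p = 3.15e-05). A putative carboxylic acid transporter, CTHT_0027630, had 145, 195 and 100.5 CPM in glucose and 3.41, 5.77 and 3.50 CPM in xylose (-5.12 ± 0.39, SE).

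A putative sugar transporter, CTHT_0049030, an MFS permease, CTHT_0045010, and a putative carbohydrate transporter, CTHT_0027350, were also higher in glucose, with changes of -3.95, -3.31 and -1.50. The call higher in xylose was a putative monocarboxylic acid transporter, CTHT_0059450, with 6.19, 4.99 and 4.62 CPM in glucose and 21.6, 20.5 and 15.0 CPM in xylose (1.85 ± 0.26, SE, edgeR adjusted p = 2.06e-04). Without glucose library 3 or without xylose library 3 the list held 2 such calls, as it did without reference library 2. A putative high-affinity glucose transporter, CTHT_0021010, had 9, 3 and 14 reads in glucose and 58, 28 and 39 in xylose, too few for a fold, and the edgeR adjusted p was 0.0725.

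**Figure D3:**
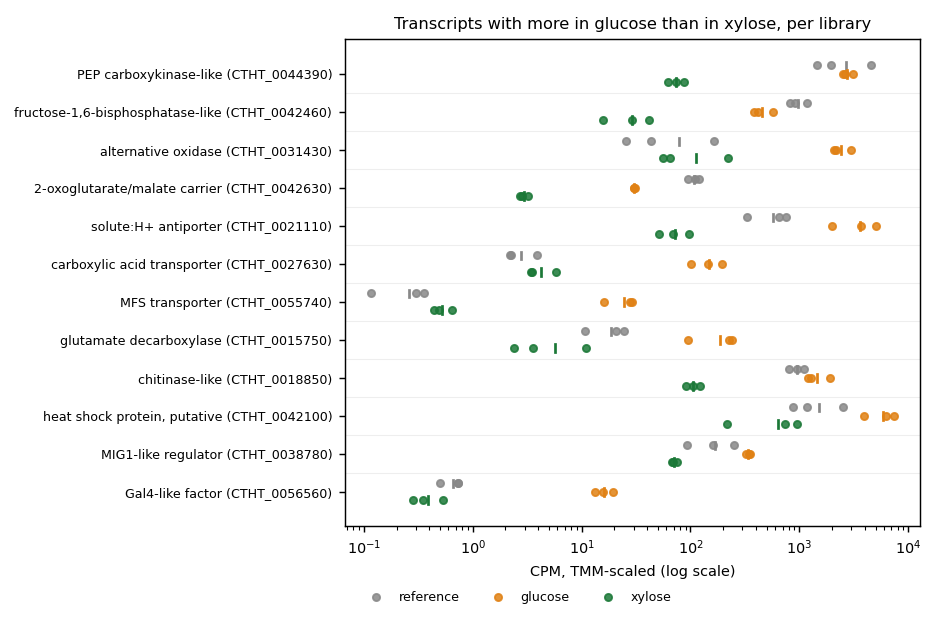
CPM (log axis, TMM-scaled) in each library of 12 genes that were higher in glucose than in xylose, with points for single libraries and vertical bars for the mean of 3. Orange glucose points lie right of green xylose points in every row, while the grey reference points lie near glucose for the gluconeogenic genes and near xylose for the alternative oxidase, the Gal4-like factor and the MFS transporter.

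The most uniform group was the one that builds ribosomes. All 28 genes named for ribosome assembly, rRNA processing or RNA polymerases I and III were higher in xylose, against 28.2% of all genes, with a median of 3.07 and a range of 0.58 to 4.71, and none was higher in glucose (0 also at an unadjusted p under 0.05 and by DESeq2). Of the calls, 27 were kept in all 6 fits that left out a library of a sugar. The study's own list of 50 genes, chosen on these samples, supplied some of the names, so the group is not independent of the data.

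A putative rRNA processing gene, CTHT_0025450, had 3.26, 1.66 and 0.764 CPM in glucose and 43.3, 60.4 and 47.6 CPM in xylose (4.71 ± 0.50, SE, edgeR adjusted p = 6.51e-05). A subunit shared by RNA polymerases I and III, which transcribe rRNA, 5S rRNA and tRNA genes, was CTHT_0057070, with 8.53, 5.29 and 4.26 CPM in glucose, 85.4, 112 and 92.4 CPM in xylose and 3.57, 3.23 and 2.34 CPM in the reference (4.0 ± 0.32, SE). The GTPase gene NOG2, CTHT_0055100, for a late pre-60S factor, had 26.1, 19.2 and 14.1 CPM in glucose and 259.9, 199 and 217 CPM in xylose (3.50 ± 0.32, SE). For each of these genes the lowest xylose library was far above the highest library of glucose and of the reference. The smallest change was that of an RNA polymerase III subunit-like gene, CTHT_0009170 (0.58 ± 0.21, SE, edgeR adjusted p = 0.0361). No fit with a glucose or xylose library left out kept its call, while all 28 calls stood without reference library 1 or 3.

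Cytosolic ribosomal proteins were less certain. All xylose libraries stood above all glucose libraries for 78 of 84 genes, against 35.6% of all genes tested, and the median was 1.53, but 35 (41.7%) were called higher in xylose. The count moved widely with the libraries in the fit. It was 3, 5 and 8 without glucose library 1, 2 and 3, and 9, 10 and 5 without xylose library 1, 2 and 3. It was 62 without reference library 3, 74 without reference library 2 and 73 with only the libraries of the 2 sugars. With other scalings it was between 10 and 71. An unadjusted p under 0.05 was reached by 63 of the genes and a DESeq2 call by 55, and none of these was higher in glucose, while 1 gene was called so without reference library 2. The largest change was that of 60S protein L36, CTHT_0066200, with 143, 125 and 175 CPM in glucose and 694, 652 and 1091 CPM in xylose (2.46 ± 0.34, SE, edgeR adjusted p = 1.96e-04). A putative 40S protein, CTHT_0018890, had lower values in xylose, at 697, 799 and 853 CPM in glucose and 314, 541 and 568 CPM in xylose (-0.72 ± 0.43, SE), without a call. This list also holds genes named only as ribosomal protein, for which the compartment was not given.

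Of 16 mitochondrial ribosomal proteins, 4 were higher in xylose, a smaller share than the 28.2% of all genes tested. Their median was 0.55, against 0.16 for all genes. The count of calls was 1 or 2 when glucose library 1, 2 or 3 or xylose library 2 or 3 was left out. The largest change was that of a gene named ymL32-like, CTHT_0001710, at 46.8, 38.7 and 30.4 CPM in glucose and 72.9, 121 and 72.9 CPM in xylose (1.20 ± 0.27, SE).

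The factors and enzymes that serve translation were mostly higher in xylose. Initiation and elongation factors were higher in xylose in 20 of 28 genes (71.4%) and in glucose in 1, with a median of 1.85. Fungal elongation factor 3, CTHT_0030910, which frees the exit site of the fungal ribosome, had 110.0, 108 and 109.7 CPM in glucose and 1750.1, 1628 and 1398 CPM in xylose (3.87 ± 0.43, SE, edgeR adjusted p = 7.49e-05). All 12 genes named as eIF3 subunits, grouped after their values were seen, were higher in xylose, with changes between 0.90 and 2.34. The exception in the list, a putative initiation factor, CTHT_0066060, had 161, 234 and 271 CPM in glucose and 36.7, 37.7 and 47.2 CPM in xylose (-2.45 ± 0.29, SE, edgeR adjusted p = 1.06e-04). Aminoacyl-tRNA synthetases, which charge tRNAs, were higher in xylose in 14 of 19 genes (73.7%), with a median of 1.25. The valyl enzyme, CTHT_0011860, had 208, 158 and 181 CPM in glucose and 795, 890.5 and 871 CPM in xylose (2.22 ± 0.29, SE), and the mitochondrial leucyl enzyme, CTHT_0067600, had the lowest change of the list (-0.56 ± 0.28, SE, edgeR adjusted p = 0.114).

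Chaperones had calls in both directions: 7 of 28 were higher in xylose, 4 in glucose, and the median was 0.50, so both shares were below those of all genes. SSB1, CTHT_0058460, a chaperone that binds nascent chains at the ribosome, had 386, 309 and 237 CPM in glucose and 2117, 2583 and 2740.2 CPM in xylose (3.0 ± 0.46, SE, edgeR adjusted p = 3.41e-04). A putative heat shock protein, CTHT_0042100, had 3909, 6202 and 7426 CPM in glucose and 217, 943 and 742 CPM in xylose (-3.21 ± 0.67, SE, edgeR adjusted p = 0.00238), with xylose library 1 the lowest. Proteasome genes stayed near the median of all genes. Their own median was 0.12, or -0.04 with TMM scaled to the first xylose library, all 28 changes lay between -0.91 and 0.70, and 1 call was made in each direction. The call in xylose was absent when any glucose library, xylose library 1 or xylose library 3 was left out, and the call in glucose when glucose library 2 or 3 or xylose library 1 or 2 was left out.

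Genes of autophagy and vacuolar peptidases, which digest cell material in the vacuole, were higher in glucose in 12 of 22 members (54.5%) and in xylose in 2, with a median of -1.19. Of the 9 named for autophagy, a group formed after their values were seen, 7 were higher in glucose and 1 in xylose. The autophagy-related gene CTHT_0057390 had 95.0, 152 and 192 CPM in glucose, 23.2, 21.4 and 18.5 CPM in xylose and 309, 291 and 452 CPM without sugar (-2.80 ± 0.33, SE, edgeR adjusted p = 9.49e-05). An aspartic endopeptidase-like gene, CTHT_0062860, had 52.4, 70.0 and 55.7 CPM in glucose and 1.54, 3.65 and 3.38 CPM in xylose (-4.38 ± 0.61, SE), and CTHT_0016370, annotated as saccharopepsin, the main vacuolar protease of yeast, had 963, 1029 and 1524 CPM in glucose and 342, 576 and 422 CPM in xylose (-1.39 ± 0.41, SE, edgeR adjusted p = 0.0146). The call of the last was lost without glucose library 3 or xylose library 3. A call in xylose fell on another endopeptidase-like gene, CTHT_0074610, which had 6, 3 and 3 reads in glucose and 47, 3 and 34 in xylose, too few for a fold, and only the fit without xylose library 2 kept it. The number of calls in xylose was 1 when any glucose library, xylose library 1 or xylose library 3 was left out.

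**Figure D4:**
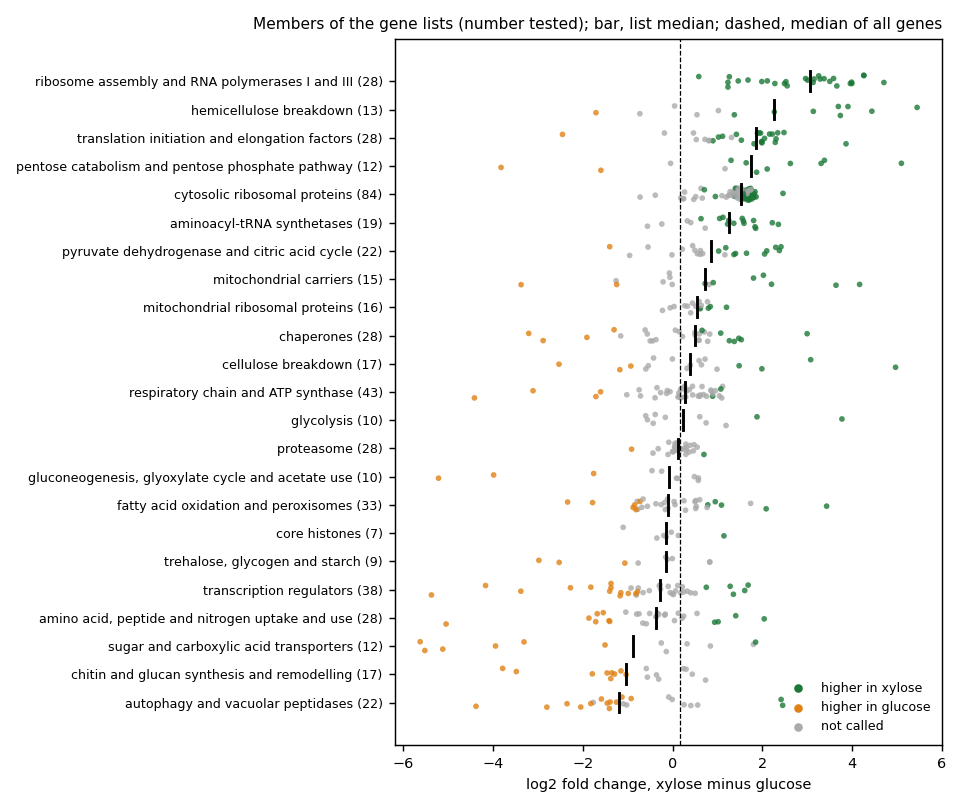
Log2 fold change (xylose minus glucose) of every tested member of 23 gene lists, with the number of members in parentheses, a black bar at the list median and a dashed line at the median of all genes, 0.16. Green and orange points are DEGs higher in xylose and in glucose. Ribosome assembly, with a median of 3.07, stands at the top, and autophagy and vacuolar peptidases, with -1.19, at the bottom.

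Cell wall genes were called in the direction of glucose: 9 of 17 genes (52.9%) for chitin and glucan synthesis and remodelling were higher in glucose, with a median of -1.03, and 0 were higher in xylose by edgeR or at an unadjusted p under 0.05, against 1 by DESeq2. A chitinase-like gene, CTHT_0018850, for an enzyme that cuts chitin, had 1291, 1193 and 1909 CPM in glucose and 90.9, 106 and 121 CPM in xylose (-3.79 ± 0.39, SE, edgeR adjusted p = 6.48e-05). Among the 6 chitin synthases, grouped after their values were seen, 2 were higher in glucose and 4 had no call.

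Storage carbohydrate genes had 3 of 9 members higher in glucose and a median of -0.15, or 0.02 with total counts alone. A trehalose synthase-like gene, CTHT_0019540, annotated as trehalose phosphorylase, had 598, 824 and 1705 CPM in glucose and 64.4, 217 and 115 CPM in xylose (-2.98 ± 0.55, SE, edgeR adjusted p = 0.00109). A putative glycogen storage control gene, CTHT_0000110, had 335, 401 and 533 CPM in glucose and 59.7, 89.8 and 70.7 CPM in xylose (-2.53 ± 0.37, SE). Glycogen synthase, CTHT_0028430, which extends glycogen chains, had 298, 339 and 297 CPM in glucose and 106, 192 and 149 CPM in xylose, and its call (-1.06 ± 0.39, SE, edgeR adjusted p = 0.0401) was kept only without glucose library 1 and without xylose library 2 among the 6 fits with a library left out. No gene of the list was higher in xylose by edgeR, at an unadjusted p under 0.05 or by DESeq2, and 1 was without xylose library 3.

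Genes for uptake and use of amino acids, peptides and nitrogen were higher in glucose in 7 of 28 cases (25%), near the 22.6% of all genes tested. They were higher in xylose in 4 (14.3%, against 28.2% of all genes), with a median of -0.36. Glutamate decarboxylase, CTHT_0015750, which turns glutamate into gamma-aminobutyrate, had 95.0, 224 and 240.1 CPM in glucose, 2.42, 10.9 and 3.59 CPM in xylose and 10.8, 20.7 and 24.7 CPM in the reference (-5.05 ± 0.64, SE, edgeR adjusted p = 1.37e-04). A peptide transporter-like gene, CTHT_0062400, had 13.5, 17.2 and 5.75 CPM in glucose and 41.5, 5.40 and 103 CPM in xylose, where library 2 was below the glucose libraries and libraries 1 and 3 were above them. Its call (2.04 ± 0.79, SE, edgeR adjusted p = 0.0492) was kept only without that library 2 among the 6 fits with a library left out, and in the reference it had 679, 751 and 338 CPM. The calls in xylose numbered 0 without glucose library 2, 2 without xylose library 2 or reference library 3, and 1 when glucose library 1 or 3 or xylose library 1 or 3 was left out. The calls in glucose numbered 3 without xylose library 1 and 4 without glucose library 2 or 3.

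Fatty acid oxidation and peroxisomes had 5 of 33 genes (15.2%) higher in xylose, 6 (18.2%) in glucose and a median of -0.10, which was above 0 with total counts alone and without xylose library 2. A gene annotated as a triacylglycerol lipase, CTHT_0047600, had 46.9, 79.5 and 80.4 CPM in glucose and 14.2, 13.2 and 13.5 CPM in xylose (-2.34 ± 0.28, SE, edgeR adjusted p = 1.07e-04). A long-chain acyl-CoA synthetase gene, CTHT_0044280, was called higher in xylose on 1, 0 and 2 reads in glucose and 18, 7 and 20 in xylose, with no fold given because glucose was at or under the floor. The count in xylose was 2 without glucose library 1 or 2 or xylose library 1, 3 without glucose library 3 or xylose library 3, and 8 without xylose library 2.

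Of 38 transcription regulators with a name, 13 (34.2%) were higher in glucose and 5 (13.2%) in xylose, with a median of -0.29. A fungal factor with a Gal4-like DNA-binding domain, CTHT_0056560, had 15.7, 13.3 and 19.3 CPM in glucose, 0.283, 0.347 and 0.530 CPM in xylose and 0.738, 0.731 and 0.501 CPM without sugar (-5.37 ± 0.39, SE, edgeR adjusted p = 2.31e-05), so it was under 1 CPM outside glucose. A C6 finger gene, CTHT_0070820, had 43.5, 35.8 and 28.5 CPM in glucose and 3.85, 2.45 and 4.03 CPM in xylose (-3.38 ± 0.30, SE). The MIG1-like regulator CTHT_0038780, singled out after its values were seen, had 342, 355 and 320.3 CPM in glucose, 67.1, 68.4 and 74.6 CPM in xylose and 251, 93.4 and 161 CPM in the reference (-2.28 ± 0.35, SE, edgeR adjusted p = 3.38e-04). The gene annotated as the xylanolytic activator XlnR, CTHT_0038840, likewise singled out, had 25.4, 22.6 and 14.5 CPM in glucose, 53.2, 98.0 and 39.8 CPM in xylose and 186, 128 and 205 CPM in the reference (1.61 ± 0.37, SE, edgeR adjusted p = 0.0037). Its highest level was thus in the libraries without sugar, with xylose between these and glucose. Among genes named only as putative transcription factor, CTHT_0040440 was higher in xylose (1.68 ± 0.30, SE) and CTHT_0051900, CTHT_0061100 and CTHT_0066850 were higher in glucose, with changes from -1.82 to -1.15. The call of CTHT_0061100 was lost without xylose library 3, and that of CTHT_0066850 without glucose library 3 or xylose library 3.

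Core histones had 1 call among 7 genes. The histone H2A gene CTHT_0007640 had 48.6, 50.7 and 48.8 CPM in glucose and 117, 86.2 and 124 CPM in xylose (1.14 ± 0.22, SE, edgeR adjusted p = 0.0016), while 6 others had no call and the median was -0.14, which was above 0 with total counts alone and without glucose library 3 or xylose library 2. Without glucose library 1 there was also 1 call in glucose, as there was without reference library 2. Of the genes listed as normalizers in the study's qRT-PCR tables, actin (CTHT_0062070) had 1119.6, 993 and 1204 CPM in glucose and 1321, 1032 and 1732 CPM in xylose (0.30 ± 0.41, SE, edgeR adjusted p = 0.556). The RNA polymerase II subunit gene rpb2 (CTHT_0045510) had 77.5, 83.1 and 76.3 CPM in glucose and 136, 135 and 130.4 CPM in xylose, a change of 0.76 ± 0.23 (SE, edgeR adjusted p = 0.0167) that was not called when any glucose library or xylose library 1 was left out.

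Genes without a named function, which most genes tested are here, were also among the largest changes. Among genes with a mean of at least 10 CPM in the higher sugar and libraries that did not overlap, the largest of all was in an uncharacterized gene, CTHT_0054700, with 694, 1385 and 1689.9 CPM in glucose, 9.86, 6.92 and 8.31 CPM in xylose and 0.873, 15.8 and 13.7 CPM in the reference (-7.23 ± 0.96, SE, edgeR adjusted p = 1.66e-04). The gene CTHT_0062290, annotated as a tocopherol O-methyltransferase, had 837, 1469 and 1114 CPM in glucose and 13.7, 19.5 and 18.3 CPM in xylose (-6.06 ± 0.80, SE). The uncharacterized gene CTHT_0033870 had 1273, 2069 and 2859.9 CPM in glucose and 21.1, 57.8 and 27.8 CPM in xylose (-5.86 ± 0.83, SE). For each of these genes the reference libraries were under every glucose library. The gene CTHT_0013550 had 6658, 10623 and 10695 CPM in glucose, 137, 384 and 128 CPM in xylose and 6914, 2368 and 3492 CPM in the reference (-5.43 ± 0.75, SE), so there the reference was on the side of glucose.

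A pair of genes that a list of the study labels non-coding, and the RefSeq annotation protein-coding, were among them as well. The gene CTHT_0011270 had 79.8, 159 and 177 CPM in glucose and 1.41, 3.08 and 3.50 CPM in xylose (-5.70 ± 0.51, SE, edgeR adjusted p = 4.54e-05), and CTHT_0018670 had 167, 283 and 332 CPM in glucose and 4.98, 6.47 and 5.11 CPM in xylose (-5.56 ± 0.43, SE, edgeR adjusted p = 3.15e-05). Whether reads were counted by strand is not given in the sources used here, so a transcript that overlaps a neighbour on the other strand could share its reads.

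On the side of xylose, 5 genes without a name were among the 10 largest changes. The gene CTHT_0061330 had 46.6, 28.8 and 28.5 CPM in glucose and 739, 1018 and 863 CPM in xylose (4.66 ± 0.64, SE, edgeR adjusted p = 2.07e-04). The gene CTHT_0014350 had 7.88, 8.41 and 20 CPM in glucose and 211, 651 and 177 CPM in xylose (4.85 ± 0.72, SE), and CTHT_0064080 had 1.52, 1.52 and 0.691 CPM in glucose and 19.9, 129 and 12.8 CPM in xylose (5.41 ± 0.84, SE), where library 2 was far above the other xylose libraries. The genes CTHT_0002840 and CTHT_0058230 changed by 4.59 and 4.28, with xylose libraries between 63.5 and 76.2 CPM for the first and between 134 and 200.2 CPM for the second.

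The 50 genes that the study listed as its most significant changes between the sugars were chosen on these samples, so their calls are a description. All 17 of its genes for xylose and all 33 for glucose had a call in the same direction in each fit with a library of a sugar left out, with medians of 3.87 and -4.29. Members not described above include a gene named for ribosomal RNA-processing protein 15, CTHT_0025020, at 9.36, 7.54 and 7.64 CPM in glucose and 58.3, 65.9 and 70.4 CPM in xylose (2.99 ± 0.24, SE), a DNA topoisomerase 2-like gene, CTHT_0058250, at 382, 522 and 565 CPM in glucose and 30.8, 22.6 and 38.0 CPM in xylose (-4.01 ± 0.33, SE), and a G1/S cyclin pcl1-like gene, CTHT_0041810, at 1082, 1927 and 3557 CPM in glucose and 77.8, 105 and 119.7 CPM in xylose (-4.44 ± 0.56, SE).

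Calls were spread over gene types and along the genome. By the RefSeq annotation of assembly CTHT_3.0, 50.9% of the 6793 protein-coding genes tested were DEGs and 39.7% of 58 pseudogenes. Of 50 tested genes that the annotation did not match, 18 were higher in xylose and 4 in glucose. There were 20 runs of at least 4 neighbouring tested genes that were all DEGs at least 1 log2 unit higher in xylose, holding 83 genes. Another 18 such runs were higher in glucose, holding 79 genes. Genes not tested were skipped in forming the runs. Of all genes tested, 22.9% and 18.8% passed that threshold, and whether the runs exceed what these shares alone would give was not tested. The longest had 6 genes, and all 3 runs of that length were higher in glucose. One of them, from CTHT_0011230 to CTHT_0011290, contains CTHT_0011270 and had a median of -3.57. Another, from CTHT_0019400 to CTHT_0019460, had a median of -3.30, and its first gene, CTHT_0019400, is also named non-coding in the study's supplements. The beta-xylanase gene CTHT_0050050 lies in a run of 4 genes higher in xylose, from CTHT_0050040 to CTHT_0050080, with a median of 3.2 and changes between 1.25 and 3.91. The MFS transporter CTHT_0055740 lies in a run of 4 genes higher in glucose.

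The division of the calls depended on how the libraries were scaled. Of the calls, 55.5% were higher in xylose, against 51.3% with DESeq2 size factors, 61.7% with total counts alone and 47.6% with TMM scaled to the first xylose library. Leaving out 1 library of a sugar gave between 2682 and 3447 DEGs, and 2424 of the DEGs were called in all 6 such fits, 1274 of them higher in xylose and 1150 higher in glucose.

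**Figure D5:**
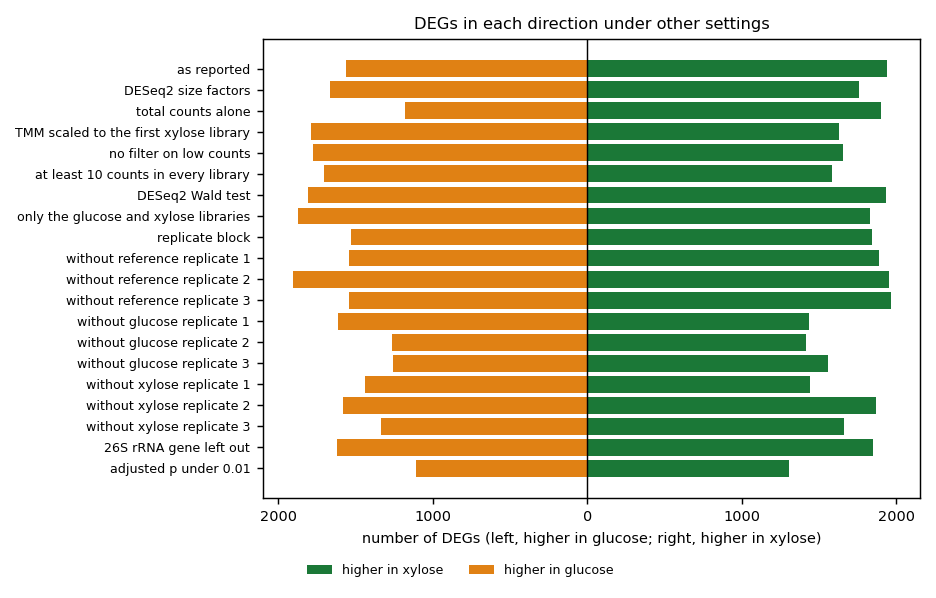
Number of DEGs higher in glucose (orange, to the left) and higher in xylose (green, to the right) as reported (1560 and 1944) and under each other setting. The bars to the right range from 1309 at an adjusted p under 0.01 to 1964 without reference replicate 3, and the side with more calls differs between settings.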

How the data were processed

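Per the methods of the study and the labels, the authors mapped 50-bp single-end reads with TopHat2 (introns of 40 to 5000 bp) to the genome of Ensembl release 28 and counted them per gene with summarizeOverlaps. Strand setting, treatment of reads with several hits and tool versions are not given in the sources used here. The authors deposited raw counts, 1 column per library, which were used as they stand. Of 7785 genes, 483 had no count in any library. Replicates of a sugar differed beyond sampling noise, so each was counted as 1 sample.

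Counts were fitted with edgeR 4.0.16 in R 4.3.3 (with limma 3.58.1): TMM scaling, filterByExpr with a minimum count of 10, which left out 881 genes, a quasi-likelihood model of the 3 conditions over all 9 libraries, and the contrast xylose minus glucose. The SE is the size of the log2 fold change over the square root of F. The floor was 3 reads in every library, at totals of 38806913 to 52229013 reads, and covers counting error only. The p-values and the SE compare 3 libraries a sugar. The spread behind them was estimated within all 3 conditions over all 9 libraries, so the reference libraries enter it. DESeq2 1.42.0 served as an alternative test and as another source of size factors. Other alternatives changed the scaling, the filter, the threshold (adjusted p under 0.01), the libraries in the fit and the block.

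Counts of the same 6904 genes, 200 of them changed, were simulated with the gene-wise spread and library scaling of the fit itself. Such counts meet the assumptions of the model, so few false calls on them do not check those assumptions. The model called 88 of 100 genes with 4-fold and 17 of 100 with 2-fold changes, with 7 false calls, and 0 genes where none was changed. In the data a far larger share of genes, 50.8%, was called, so these shares do not carry over directly.

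Gene names came from the supplementary tables of the study, some of which were held only in shortened form, so the lists miss members whose names were not seen. The members and lists were chosen with earlier results of these data known. The 174 genes that could be described by rule were every member of lists of up to 13 tested genes, and for longer lists the largest increase, the largest decrease and the smallest p. The rule also took the 10 largest changes in each direction (libraries that did not overlap, mean of at least 10 CPM in the higher sugar), the 10 smallest p-values in each direction, genes of 1 name called in opposite directions, both qRT-PCR normalizers and the study's 50 listed genes. Genes described outside this rule are said to have been chosen after their values were seen. Gene order and types came from the RefSeq annotation of assembly CTHT_3.0, in which 7472 of the listed IDs were found and 313 were not. A planned description of promoter motifs was not run, and no sequences are printed.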

Additional observations from a re-analysis of the deposited data

How the results depend on the processing

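Counts of all DEGs stayed within 1.5 times of the 3504 reported under every setting. There were 3426 with DESeq2 size factors (1758 higher in xylose), 3082 with total counts alone (1903), 3421 with TMM scaled to the first xylose library (1629), 3427 without a filter (1654), 3291 where each library had to hold 10 counts or more (1584), 3742 by DESeq2's Wald test (1936), 3704 with only the glucose and xylose libraries (1834) and 2416 at an adjusted p under 0.01 (1309). Leaving out 1 library, including each reference library, which was an alternative chosen after seeing the data, gave 2682 to 3861 DEGs, 1419 to 1964 of them higher in xylose. Without the 26S rRNA gene, likewise added later, there were 3475 (1853). The share of calls higher in xylose ran from 47.1% without glucose library 1 to 61.7% with total counts alone, against 55.5% as reported. It was 48.3% without a filter, 48.1% with that stricter filter and 49.5% with only the libraries of the sugars. The cause of these shifts was not tested.

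Replicate numbers did not pair the libraries throughout. Deviations of glucose and xylose libraries with the same number had correlations of 0.169, 0.0294 and 0.0646, and over all same-number pairs, reference included, of -0.281 to 0.289. Those with number 1 were all positive, at 0.289, 0.208 and 0.169, while reference library 2 and xylose library 3 had 0.285. Whether the libraries with number 1 share a batch was not tested. With the replicate number as a block there were 3374 DEGs, 1846 higher in xylose, and the calls higher in xylose numbered 0 in the respiratory chain, 2 among sugar transporters, 3 in fatty acid oxidation and 1 in autophagy.

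List counts that moved by more than 1.5 times were as follows, with the cause not tested. For calls higher in xylose, DESeq2 size factors gave 0 in the respiratory chain, 13 cytosolic ribosomal proteins and 0 in the proteasome. Total counts alone gave 2 sugar transporters and 71 cytosolic ribosomal proteins in xylose, and 1 gene of cellulose breakdown, 2 of fatty acid oxidation and 0 of the proteasome in glucose. TMM scaled to the first xylose library gave 0 respiratory, 1 amino acid and nitrogen, 10 cytosolic and 1 mitochondrial ribosomal, 3 fatty acid and 0 proteasome genes in xylose, and 1 aminoacyl-tRNA synthetase and 1 core histone in glucose. Without a filter the counts in xylose were 0 respiratory, 2 amino acid and nitrogen, 11 cytosolic and 2 mitochondrial ribosomal, 3 fatty acid and 0 proteasome genes. With the stricter filter they were 0, 2, 11, 2, 2 and 0 in the same order, with 1 in autophagy, and in glucose 1 synthetase and 1 histone. DESeq2's Wald test gave 2 sugar transporters, 55 cytosolic ribosomal proteins and 1 cell wall gene in xylose, and 1 histone in glucose. With only the libraries of the sugars the counts in xylose were 9 respiratory, 2 amino acid and nitrogen, 73 cytosolic ribosomal, 3 fatty acid, 1 cell wall, 0 proteasome and 1 autophagy genes, and in glucose 2 hemicellulose, 3 citric acid cycle, 7 respiratory, 1 cytosolic ribosomal, 1 synthetase, 2 proteasome and 1 histone genes. Without the 26S rRNA gene the counts in xylose were 1 respiratory and 23 cytosolic ribosomal genes.

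With 1 of the 9 libraries left out, calls higher in xylose ranged from 0 to 8 in the respiratory chain, 1 to 2 for sugar transporters, 3 to 74 for cytosolic and 1 to 5 for mitochondrial ribosomal proteins, 0 to 3 for amino acids and nitrogen, 4 to 8 for mitochondrial carriers, 2 to 8 for fatty acids, 0 to 1 for the proteasome, 1 to 2 for autophagy, 0 to 1 for the qRT-PCR normalizers and 0 to 1 for storage carbohydrates. Calls higher in glucose ranged from 1 to 3 for the citric acid cycle, 4 to 7 in the respiratory chain, 0 to 1 for cytosolic ribosomal proteins, synthetases, histones and the proteasome, 1 to 3 for carriers, 3 to 9 for amino acids and nitrogen and 1 to 4 for cellulose breakdown. Other list counts stayed within 1.5 times. Of the 174 genes taken by the rule, 19 changed sign in at least 1 setting, at most 11 of them in 1 setting (total counts alone). None of the 19 had a call as reported, and their changes were at most 0.54 log2 units in size. One of them is described by its own values, transaldolase (CTHT_0013420, -0.04 as reported), which moved to 0.15 with total counts alone and ranged from -0.36 to 0.20 with 1 library left out. With 3 libraries a sugar the simulated fit called few 2-fold changes. It changed only 200 of 6904 genes, against 50.8% called in the data, so its shares do not carry over directly. In the data, 282 genes without a call had a change of at least 1 log2 unit in size, so such genes may still differ by 2-fold. Promoter motifs were planned but not run.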

Other observations

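Gene groups outside the lists of the report were formed from the same names after their values had been seen, so their counts are a description. Enzymes of amino acid synthesis were higher in xylose in 11 of 16 genes (edgeR, 28.2% of all genes) and higher in glucose in 1, with a median log2 fold change of 1.79. A 3-isopropylmalate dehydratase gene, CTHT_0030240, for a step of leucine synthesis, had 32.1, 24.5 and 30.6 CPM in glucose, 302, 504 and 313 CPM in xylose and 50.1, 138 and 37.4 CPM in the reference (3.68 ± 0.49, SE, edgeR adjusted p = 1.66e-04). An asparagine synthetase-like gene, CTHT_0063130, had 86.2, 72.7 and 104 CPM in glucose and 455, 606 and 614 CPM in xylose (2.67 ± 0.34, SE), and a homocitrate synthase-like gene, CTHT_0044760, for the first step of fungal lysine synthesis, had 205, 178 and 270.4 CPM in glucose and 856, 1579 and 909.9 CPM in xylose (2.36 ± 0.38, SE). For all 3 genes every xylose library stood above every glucose library. The gene in the other direction, annotated as dihydroxy-acid dehydratase, CTHT_0020890, an enzyme of branched-chain amino acid synthesis, had 1.68, 1.79 and 5.82 CPM in glucose and 1.25, 0.608 and 0.805 CPM in xylose (-1.78 ± 0.62, SE), and its call was lost without glucose library 3, xylose library 2 or xylose library 3.

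Genes named for DNA replication and repair were higher in xylose in 14 of 18 cases and in glucose in 2, or 1 without glucose library 2, xylose library 1 or xylose library 3, with a median of 1.62. A DNA polymerase-like gene, CTHT_0018940, had 8.46, 5.29 and 3.13 CPM in glucose and 54.7, 21.5 and 42.1 CPM in xylose (2.80 ± 0.45, SE, edgeR adjusted p = 4.78e-04), and the repair gene RAD50, CTHT_0073630, whose product takes part in repair of broken DNA ends, had 9.67, 7.96 and 4.95 CPM in glucose and 34.7, 31.1 and 24.0 CPM in xylose (1.99 ± 0.36, SE). The topoisomerase 2-like gene described above was among the exceptions. Genes named for splicing or for processing and decay of RNA were mostly genes of mRNA, with a tRNA-splicing endonuclease subunit and exosome components among them. They were higher in xylose in 17 of 27 cases and in glucose in 4, or 2 without glucose library 3, with a median of 1.05. Protein kinases had 11 of 26 genes higher in glucose (22.6% of all genes) and 2 in xylose, or 1 without glucose library 2, glucose library 3 or xylose library 1, with a median of -0.36. The count in glucose was 7 with total counts alone. Genes of sterol and membrane lipid metabolism had 10 of 30 higher in glucose and 1 in xylose, with a median of -0.28, and the count in xylose was 3 without xylose library 2. Squalene monooxygenase, CTHT_0032780, an early step of ergosterol synthesis, had 501, 653 and 778 CPM in glucose and 103, 78.0 and 175 CPM in xylose (-2.44 ± 0.39, SE, edgeR adjusted p = 4.30e-04), and a sterol 5-desaturase gene, CTHT_0019590, of the later part of that route, had 1064, 1105 and 999 CPM in glucose and 124, 168 and 189 CPM in xylose (-2.72 ± 0.39, SE).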
